A study of Mus musculus with 8 samples.

Results

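The proteasome is the cell's main protease for proteins tagged with ubiquitin, and the genes described here encode its parts: 48 genes for core, regulatory, immune-type, activator and assembly proteins. Members were taken by symbol from the array's annotation, where a row names that gene and no other. This left 45 of the 48, each on 1 row, among 30700 genes measured. The rows of Psmb5 and Psme2 also name a second gene, and no row names Adrm1, so these 3 have no value of their own here.

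RNA came from late 2-cell mouse embryos of B6C3F1 x CD1 matings, fertilised in vivo, and each of 8 whole-transcript arrays held a pool of 100 embryos. The 4 groups of 2 pools each were compared with one another. The full treatment was an injection of Trim21 mRNA plus an anti-COPS3 antibody into the ooplasm at the pronuclear stage. Its comparison group received Trim21 mRNA without the antibody. A further group received the anti-COPS3 antibody alone, and non-manipulated embryos were left in the incubator. All were cultured in KSOM(aa) for 28 h after injection per the protocol, although the age label gives 24 h. TRIM21, a ubiquitin ligase, grips antibodies and sends them with their bound protein to the proteasome, so the removal of COPS3 in this method itself runs through the complex whose transcripts are described here. The labels give normal cleavage in the groups without antibody, but stunted cleavage with many undivided zygotes in both groups that received it. No group received a control antibody. Each group was handled on a day of its own within 1 week, with both its pools on that day. A difference between groups cannot be told apart from a difference between days, and each p measures spread between pools of a shared day.

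The proteasome is built from a barrel-shaped core and regulatory particles that cap it. The core has outer alpha rings, which form a gated entrance, and inner beta rings, which carry the protein-cutting sites. The regulatory particle has a base, whose ATPase ring unfolds proteins and threads them into the core, and a lid, which removes the ubiquitin chains. The lid shares its architecture and several related subunits with the COP9 signalosome, the complex that contains COPS3 and takes the ubiquitin-like NEDD8 off cullin ubiquitin ligases. In the early mouse embryo, the ubiquitin-proteasome system clears maternal proteins while the embryo's own genome is switched on.

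Values are the deposited log2 levels, on which a step of 1 is a 2-fold step, and a difference is the mean of the first group minus the mean of the second ± its standard error, with 2 pools a group. Trim21 itself read 10.40 and 10.30 with the full treatment and 9.77 and 10.14 with Trim21 mRNA, against 6.76 and 6.37 with antibody alone and 6.27 and 5.65 in non-manipulated embryos, so the injected transcript was seen where the labels place it. Cops3 mRNA, which the method does not target, read 9.06 and 9.40 with the full treatment and 10.00 and 9.97 with Trim21 mRNA, against 8.85 and 8.86 with antibody alone and 9.50 and 9.52 in non-manipulated embryos (−0.76 ± 0.16 for the full treatment against Trim21 mRNA, adjusted p = 0.0173). The arrays were not on a shared distribution. Their medians were 5.15 and 5.29 with the full treatment, 4.87 and 4.90 with Trim21 mRNA, 5.24 and 4.86 with antibody alone, and 4.75 and 4.77 in non-manipulated embryos. Both full-treatment arrays and the first antibody-alone array had 136 to 169 rows at the array's highest value, and no proteasome gene was among them. The antibody-alone pools were the least alike: 4616 genes, 15% of all, lay more than 2-fold apart between them, while in the other groups 49 to 809 genes did.

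Embryo identity showed in the markers. The 14 oocyte and embryo markers had medians of 11.44 to 12.84 over the arrays, and the 10 measured markers of the transient 2-cell program had medians of 10.37 to 12.13. Medians stayed at 4.12 to 5.86 for cumulus and granulosa, sperm, oviduct, and blood and immune markers. Exceptions were the granulosa genes Cyp11a1, at 9.93 and 9.05 with antibody alone and at 5.07 to 6.38 on the other arrays, and Inha, at 10.32 in the second non-manipulated pool. The log2 scale has no zero, so no marker could be at 0.

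Transcripts of the proteasome were broadly lower with the full treatment than with Trim21 mRNA. Of the 45 measured genes, 29 fell and none rose in limma's moderated test at an adjusted p under 0.05, where 14.5% of all 30700 genes fell and 8.72% rose. The median difference of the 45 genes was −1.75, against 0.21 over all genes. Genes with a higher mean level fell more often across the array: of the 6739 genes with a mean log2 level of 8 or more, 44.4% fell and 11.6% rose, with a median of −0.74. Among the 35 proteasome genes at that level 26 fell and none rose, with a median of −1.94. Both full-treatment pools lay below both Trim21 mRNA pools at 39 of the 45 genes and above them at 4, where 26.5% and 50.3% of all genes did so. Since whole embryos were pooled, fewer embryos carrying a transcript and less of it per embryo cannot be told apart.

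Markers of embryo stage moved in the same comparison. Of the 10 markers of the 2-cell program 8 rose and 1 fell, with summed levels of 121.9 and 122.1 with the full treatment, against 108 and 110.1 with Trim21 mRNA. Of the 14 oocyte and embryo markers 5 rose and 1 fell, with sums of 179.9 and 175.3 against 169.5 and 167.5. Of the cumulus and granulosa list 1 of 12 rose, with sums of 62.8 and 63.1 with the full treatment against 61.6 and 61.5 with Trim21 mRNA. The part of these markers in the proteasome differences was not tested.

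**Figure D1:**
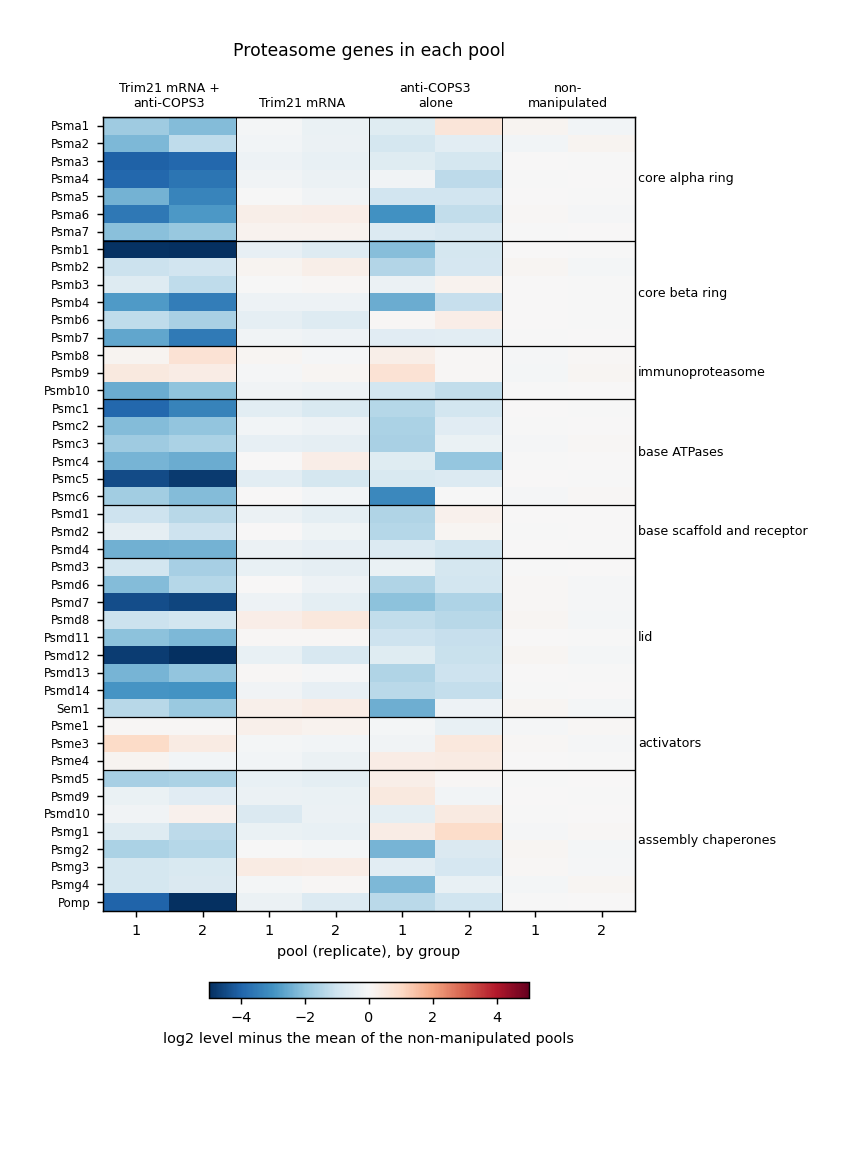
Each row is a proteasome gene, each column a pool, and colour is the log2 level minus the mean of the 2 non-manipulated pools, from blue (lower) to red (higher). The alpha ring, beta ring and lid form blue blocks in both full-treatment pools, while the activators stay near white and the antibody-alone pools differ from each other at several genes, such as Psmc6 at 7.38 and 10.57.

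The alpha ring, whose 7 subunits gate the core, fell as a whole. All 7 genes passed the test with the full treatment against Trim21 mRNA, with differences of −3.68 to −1.53 and a median of −2.74. Psma3 read 9.77 and 9.91 with the full treatment and 13.58 and 13.46 with Trim21 mRNA, against 13.23 and 12.94 with antibody alone and 13.85 and 13.81 in non-manipulated embryos. It was lowest in the full-treatment pools, 12.8-fold below Trim21 mRNA (−3.68 ± 0.16, adjusted p = 6.5e-05). Psma4 read 7.54 and 7.78 with the full treatment and 11.29 and 11.14 with Trim21 mRNA, against 11.28 and 10.13 with antibody alone and 11.43 and 11.47 in non-manipulated embryos. Its full-treatment pools again lay below all other pools, and the fall was 11.8-fold (−3.55 ± 0.35, adjusted p = 0.000562). Psma2 fell least of the ring. Its pools read 10.40 and 11.38 with the full treatment and 12.50 and 12.35 with Trim21 mRNA, against 11.75 and 12.13 with antibody alone and 12.52 and 12.76 in non-manipulated embryos (−1.53 ± 0.32, adjusted p = 0.0155). Psma1, Psma5, Psma6 and Psma7 also fell, at −1.75, −2.74, −3.54 and −2.17.

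Every measured beta-ring gene also passed the test, and this ring held the largest fall of the whole complex. Psmb1, a structural subunit without a cutting site, read 8.84 and 8.27 with the full treatment and 13.39 and 13.15 with Trim21 mRNA, against 11.66 and 12.90 with antibody alone and 13.82 and 13.77 in non-manipulated embryos. That is 26.3-fold lower with the full treatment than with Trim21 mRNA (−4.72 ± 0.40, adjusted p = 0.000303). Psmb4, also structural, read 9.42 and 8.81 with the full treatment and 12.01 in both Trim21 mRNA pools, against 9.78 and 11.12 with antibody alone and 12.28 and 12.24 in non-manipulated embryos. It fell 7.44-fold (−2.89 ± 0.42, adjusted p = 0.00316), and the first antibody-alone pool came close to the full-treatment pools. Psmb2 and Psmb3 also fell, at −1.24 and −0.96. The 6 measured genes had a median of −2.05.

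The catalytic subunits differed in the size of their fall. Psmb7, the trypsin-like subunit, read 9.46 and 8.52 with the full treatment and 11.89 and 11.81 with Trim21 mRNA, against 11.51 and 11.53 with antibody alone and 12.06 and 12.07 in non-manipulated embryos. Its difference was −2.86 ± 0.29 (adjusted p = 0.000635). Psmb6, the caspase-like subunit, read 10.07 and 9.71 with the full treatment and 10.87 and 10.70 with Trim21 mRNA, against 11.38 and 11.67 with antibody alone and 11.36 and 11.30 in non-manipulated embryos. Its fall of 0.89 ± 0.19 (adjusted p = 0.016) was the smallest of the ring, and its antibody-alone pools lay above the non-manipulated pools. The chymotrypsin-like subunit is encoded by Psmb5, whose row is shared with a microRNA gene.

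The immunoproteasome genes encode catalytic subunits that replace the standard ones, mostly in immune cells and under interferon. Psmb10, which replaces Psmb7, read 6.37 and 6.84 with the full treatment and 8.64 and 8.57 with Trim21 mRNA, against 7.91 and 7.62 with antibody alone and 8.83 and 8.84 in non-manipulated embryos. It fell 4-fold (−2.00 ± 0.20, adjusted p = 0.000642), in the same direction as Psmb7. Psmb8 and Psmb9, which replace Psmb5 and Psmb6, stayed near the array medians on every array. Psmb8 read 4.89 and 5.46 with the full treatment and 4.82 and 4.68 with Trim21 mRNA, against 5.03 and 4.79 with antibody alone and 4.69 and 4.79 in non-manipulated embryos (0.42 ± 0.22, adjusted p = 0.197). Psmb9 read 5.48 and 5.35 with the full treatment and 4.93 and 5.09 with Trim21 mRNA, against 5.71 and 5.07 with antibody alone and 4.91 and 5.08 in non-manipulated embryos (0.41 ± 0.23, adjusted p = 0.232). Neither passed the test.

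The ATPase ring of the base gave 4 falls among 6 genes, with a median of −2.23. Psmc5 read 7.41 and 7.11 with the full treatment and 11.37 and 11.00 with Trim21 mRNA, against 11.14 and 11.19 with antibody alone and 11.90 and 11.87 in non-manipulated embryos. The full-treatment pools stood apart from 6 pools that lay between 11.00 and 11.90, and the fall was 15.2-fold (−3.92 ± 0.19, adjusted p = 6.5e-05). Psmc1 read 7.85 and 8.43 with the full treatment and 11.23 and 11.01 with Trim21 mRNA, against 10.32 and 10.83 with antibody alone and 11.78 and 11.75 in non-manipulated embryos. Here the antibody-alone pools lay between the full-treatment pools and all others (−2.98 ± 0.26, adjusted p = 0.000323). Psmc2 and Psmc4 also fell, at −1.85 and −2.55. Psmc3 and Psmc6 did not pass. Psmc3 read 6.71 and 6.90 with the full treatment and 8.10 and 8.06 with Trim21 mRNA, against 6.86 and 8.16 with antibody alone and 8.44 and 8.56 in non-manipulated embryos (−1.27 ± 0.38, adjusted p = 0.0537). For Psmc6 the 2 antibody-alone pools, at 7.38 and 10.57, lay furthest apart of any proteasome gene, and its error was the largest of the ring (−1.91 ± 0.88, adjusted p = 0.161). Its full-treatment pools, at 8.85 and 8.43, lay below its Trim21 mRNA pools, at 10.61 and 10.48.

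Around the ATPases sit the scaffolds Psmd1 and Psmd2 and the ubiquitin receptor Psmd4, of which Psmd4 alone passed. Psmd4 read 9.48 and 9.52 with the full treatment and 11.59 and 11.46 with Trim21 mRNA, against 11.20 and 10.97 with antibody alone and 11.88 and 11.87 in non-manipulated embryos (−2.02 ± 0.15, adjusted p = 0.000198). The scaffold Psmd1 read 8.60 and 8.26 with the full treatment and 9.33 and 9.17 with Trim21 mRNA, against 8.13 and 9.86 with antibody alone and 9.64 in both non-manipulated pools (−0.82 ± 0.50, adjusted p = 0.257). Psmd2, the scaffold that docks ubiquitin shuttles, read 10.22 and 9.65 with the full treatment and 10.69 and 10.45 with Trim21 mRNA, against 9.23 and 10.78 with antibody alone and 10.66 and 10.68 in non-manipulated embryos (−0.63 ± 0.47, adjusted p = 0.342). In both scaffolds the 2 antibody-alone pools straddled the full-treatment pools.

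In the lid, 7 of 9 genes fell, with a median of −2.16 and values from −4.37 to −0.87. Psmd12, a structural subunit, read 8.15 and 7.67 with the full treatment and 12.50 and 12.07 with Trim21 mRNA, against 12.30 and 11.77 with antibody alone and 12.98 and 12.80 in non-manipulated embryos. It was 20.7-fold lower than with Trim21 mRNA (−4.37 ± 0.27, adjusted p = 0.000104), while the antibody-alone pools overlapped the Trim21 mRNA pools. Psmd7, the partner that holds the deubiquitinating subunit in place, read 9.85 and 9.71 with the full treatment and 14.05 and 13.81 with Trim21 mRNA, against 12.23 and 12.74 with antibody alone and 14.34 and 14.26 in non-manipulated embryos. Its fall was 17.8-fold (−4.15 ± 0.21, adjusted p = 6.76e-05), and the antibody-alone pools lay in between. Psmd14, the deubiquitinating enzyme of the lid, fell by 2.70 ± 0.16, and Psmd11, Psmd13, Psmd6 and Psmd8 stood at −2.20, −2.16, −1.69 and −1.42. Psmd3 and the small subunit Sem1 did not pass. Psmd3 read 10.25 and 9.51 with the full treatment and 10.79 and 10.71 with Trim21 mRNA, against 10.86 and 10.30 with antibody alone and 11.17 and 11.18 in non-manipulated embryos (−0.87 ± 0.29, adjusted p = 0.0707). Sem1 had a difference of −1.94 ± 0.62 (adjusted p = 0.0656), with its antibody-alone pools at 7.46 and 9.64.

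The activators open the core without the ATPase base, and none of the 3 measured genes fell, while every other class held at least 1 fall. The fourth activator gene, Psme2, is on 2 rows that also name Psme2b, so it is not in this count. Both rows read lowest in the full-treatment pools, at 6.78 and 7.04 with the full treatment against 7.94 and 8.20 with Trim21 mRNA on the first, and at 7.04 and 7.56 against 9.26 and 9.75 on the second. Psme3, which forms a nuclear activator ring, read 15.09 and 14.53 with the full treatment and 14.05 and 13.98 with Trim21 mRNA, against 13.95 and 14.65 with antibody alone and 14.17 and 14.09 in non-manipulated embryos. Its full-treatment pools lay above both Trim21 mRNA pools, without passing the test (0.80 ± 0.28, adjusted p = 0.0845). Psme4, a nuclear activator that acts as a large monomer, read 12.10 and 11.80 with the full treatment and 11.82 and 11.68 with Trim21 mRNA, against 12.32 and 12.37 with antibody alone and 11.97 and 11.94 in non-manipulated embryos (0.20 ± 0.16, adjusted p = 0.384). Psme1, a subunit of the interferon-inducible activator, read 6.57 and 6.56 with the full treatment and 6.76 and 6.68 with Trim21 mRNA, against 6.40 and 6.12 with antibody alone and 6.44 and 6.58 in non-manipulated embryos (−0.16 ± 0.16, adjusted p = 0.491). The calls on Psme3 and Psme4 depended on the processing. After quantile normalization Psme3 was higher by 1.71 (adjusted p = 0.00391) and Psme4 by 1.05 (adjusted p = 0.00174), and after cyclic loess by 1.39 and 0.93, whereas with each array centred on its median Psme4 stood at −0.14 and neither was called. On the deposited scale Psme3 was also called higher with array quality weights (adjusted p = 0.0127), with only the groups compared (adjusted p = 0.0413), and with either or both antibody-alone arrays left out (adjusted p = 0.0172). Over all 21 alternatives the adjusted p of Psme3 ranged from 0.00391 to 1 and that of Psme4 from 0.00174 to 1.

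The assembly chaperones were mixed, with 3 falls among 8 genes. Pomp, which the core needs to complete its beta rings, read 8.46 and 7.47 with the full treatment and 12.18 and 11.80 with Trim21 mRNA, against 11.13 and 11.48 with antibody alone and 12.47 and 12.48 in non-manipulated embryos. It fell 16.3-fold (−4.02 ± 0.33, adjusted p = 0.000273), a size close to the largest falls of the core itself. Psmd5, a chaperone of the ATPase base, fell by 1.20 ± 0.15, with full-treatment pools at 10.51 and 10.58, Trim21 mRNA pools at 11.81 and 11.69 and antibody-alone pools at 12.44 and 12.24, above the non-manipulated pools at 12.16 and 12.17. Psmg3, which helps to build the alpha ring, fell by 1.19 ± 0.16. Psmg2, another alpha-ring chaperone, read 5.91 and 6.09 with the full treatment and 7.48 and 7.42 with Trim21 mRNA, against 5.19 and 6.76 with antibody alone and 7.60 and 7.40 in non-manipulated embryos (−1.45 ± 0.45, adjusted p = 0.0605). The base chaperone Psmd9 read 6.68 and 6.45 with the full treatment and 6.69 and 6.68 with Trim21 mRNA, against 7.47 and 6.88 with antibody alone and 7.02 and 6.98 in non-manipulated embryos, and its full-treatment and Trim21 mRNA pools overlapped (−0.12 ± 0.22, adjusted p = 0.699). Psmg1, Psmg4 and the base chaperone Psmd10 had differences of −0.62, −0.79 and 0.52 and were not called.

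**Figure D2:**
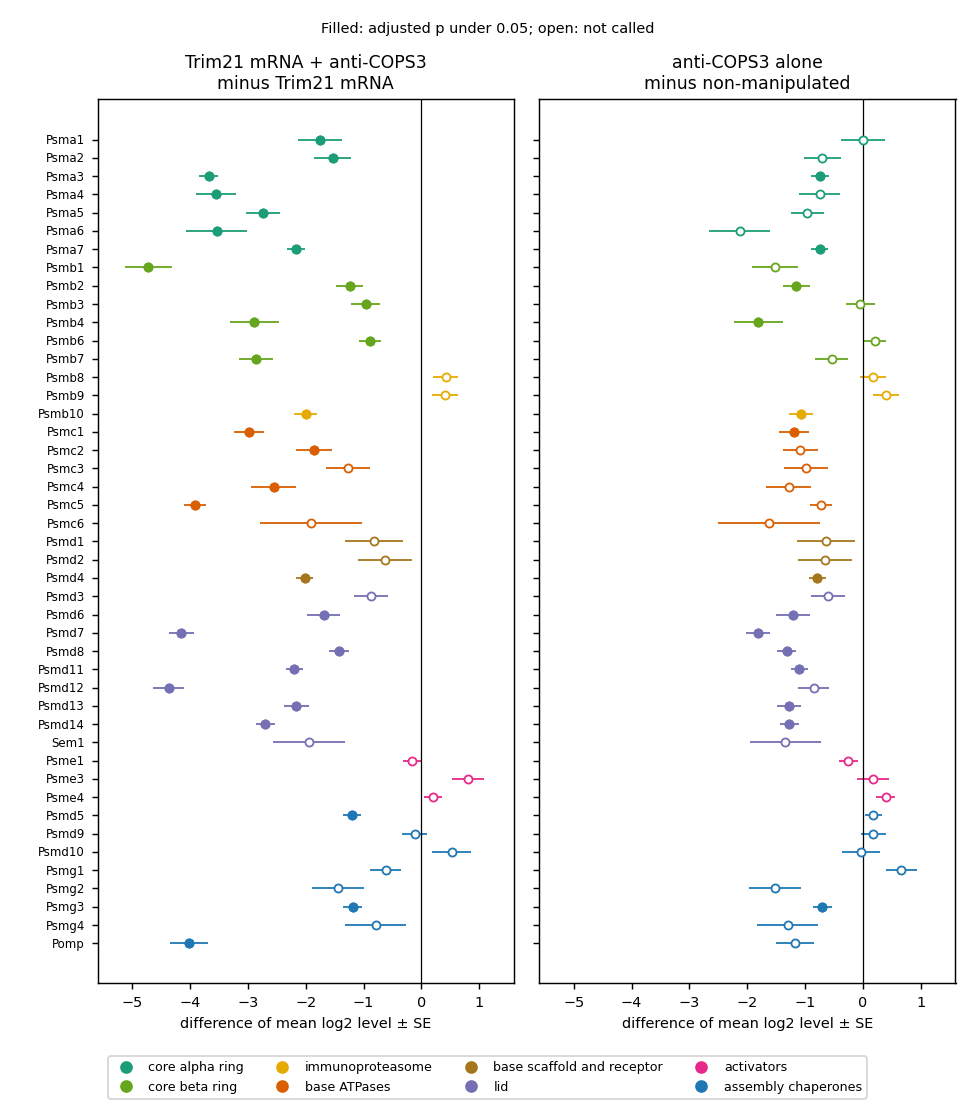
Points are differences of mean log2 level with bars of 1 standard error for the 45 genes, coloured by class, on the left for the full treatment minus Trim21 mRNA and on the right for antibody alone minus non-manipulated embryos. Filled points passed an adjusted p under 0.05: 29 on the left, down to −4.72 at Psmb1, and 14 on the right, down to −1.82 at Psmd7.

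Promoters are shown because many members fell together. They belong to the 4 genes with the largest falls among the 38 that had a promoter entry, and to 2 activators that did not fall. Psmb1 and Psmd7, which fell further than Pomp, Psmc5 and Psma3, had no entry. The 250 bases before each RefSeq transcription start (GRCm38.p6, 5′ to 3′ on the gene's strand) are in lower case. Capitals mark CCGGAA, the core bound by ETS-family factors, and TGACNNNGC, the antioxidant-response core bound by NFE2L1 and NFE2L2, on either strand, so that CCGGAA on the other strand appears as TTCCGG. Psmd12, Psmc5, Pomp and Psma3 come first, followed by Psme3 and Psme4.
Psmd12 (chr11:107479278-107479527, plus strand): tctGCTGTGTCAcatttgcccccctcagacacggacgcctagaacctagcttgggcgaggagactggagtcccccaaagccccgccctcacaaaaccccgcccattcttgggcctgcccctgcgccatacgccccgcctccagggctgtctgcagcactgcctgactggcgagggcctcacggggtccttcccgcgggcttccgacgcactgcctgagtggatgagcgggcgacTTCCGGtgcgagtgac
Psmc5 (chr11:106255935-106256184, plus strand): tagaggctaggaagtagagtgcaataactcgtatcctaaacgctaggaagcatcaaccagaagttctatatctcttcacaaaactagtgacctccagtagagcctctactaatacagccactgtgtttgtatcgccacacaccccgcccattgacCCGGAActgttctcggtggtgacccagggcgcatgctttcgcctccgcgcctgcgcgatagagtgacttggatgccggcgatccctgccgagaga
Pomp (chr5:147860378-147860627, plus strand): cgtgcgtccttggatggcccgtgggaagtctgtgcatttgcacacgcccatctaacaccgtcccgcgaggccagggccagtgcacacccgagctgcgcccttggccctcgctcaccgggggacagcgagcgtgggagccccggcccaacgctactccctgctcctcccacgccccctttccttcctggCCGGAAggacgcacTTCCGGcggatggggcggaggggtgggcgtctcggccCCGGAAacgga
Psma3 (chr12:70974373-70974622, plus strand): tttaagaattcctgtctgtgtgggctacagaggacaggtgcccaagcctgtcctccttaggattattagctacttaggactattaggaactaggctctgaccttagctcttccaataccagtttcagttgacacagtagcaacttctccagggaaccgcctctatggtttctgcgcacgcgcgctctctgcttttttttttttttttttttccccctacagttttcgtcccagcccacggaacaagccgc
Psme3 (chr11:101315963-101316212, plus strand): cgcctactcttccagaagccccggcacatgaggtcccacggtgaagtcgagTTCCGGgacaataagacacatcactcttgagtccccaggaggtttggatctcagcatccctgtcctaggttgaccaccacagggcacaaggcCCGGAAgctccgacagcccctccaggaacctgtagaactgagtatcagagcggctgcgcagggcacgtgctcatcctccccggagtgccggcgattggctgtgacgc
Psme4 (chr11:30771525-30771774, plus strand): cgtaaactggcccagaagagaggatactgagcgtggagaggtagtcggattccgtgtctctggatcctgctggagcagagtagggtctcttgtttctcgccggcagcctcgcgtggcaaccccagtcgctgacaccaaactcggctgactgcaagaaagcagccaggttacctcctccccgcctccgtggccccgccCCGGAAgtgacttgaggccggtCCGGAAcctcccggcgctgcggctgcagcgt

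Of these 6 promoters, Pomp held 3 CCGGAA matches, the last 11 to 6 bases before the start. Psmd12 held a match 16 to 11 bases before the start on the other strand, besides the only TGACNNNGC match of the 6. Psmc5 held 1 CCGGAA match, the activators Psme3 and Psme4 held 2 each, and Psma3 held none of either motif. The Psma3 stretch precedes a start inside the gene's annotated span, which begins at 70969283. The bases before that position are not shown. A promoter entry existed for 38 of the 45 measured genes. CCGGAA occurred in 44.7% of these 38, against 13.6% of 27025 promoters of all genes and 17% of 17492 promoters of protein-coding genes, read at the same length. Of members called lower with the full treatment against Trim21 mRNA, 11 of 25 held it (44%), and 6 of 13 that were not called (46.2%). Those not called are not all without a fall. Of the 6, Psmc6, Psmd2 and Psmg1 stood at −1.91, −0.63 and −0.62. Psmd10, Psme3 and Psme4 stood at 0.52, 0.80 and 0.20. The longer CCGGAAG, which lies within these matches, occurred in 34.2% of members and 7.83% of all promoters. TGACNNNGC occurred in 10.5% of members and 11.5% of all promoters. The GC box GGGCGG occurred in 57.9% of members, against 35.4% of all and 45.8% of protein-coding promoters, the CCAAT box in 34.2% against 37.5% of all, and the E-box CACGTG in 10.5% against 6.86% of all. Each of 8 motifs was searched on both strands, and TGACGTCA and ATGGCGGC occurred in none of the 38, against 1.77% and 1.19% of all promoters. A match is a description of these letters and not of a factor at work.

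**Figure D3:**
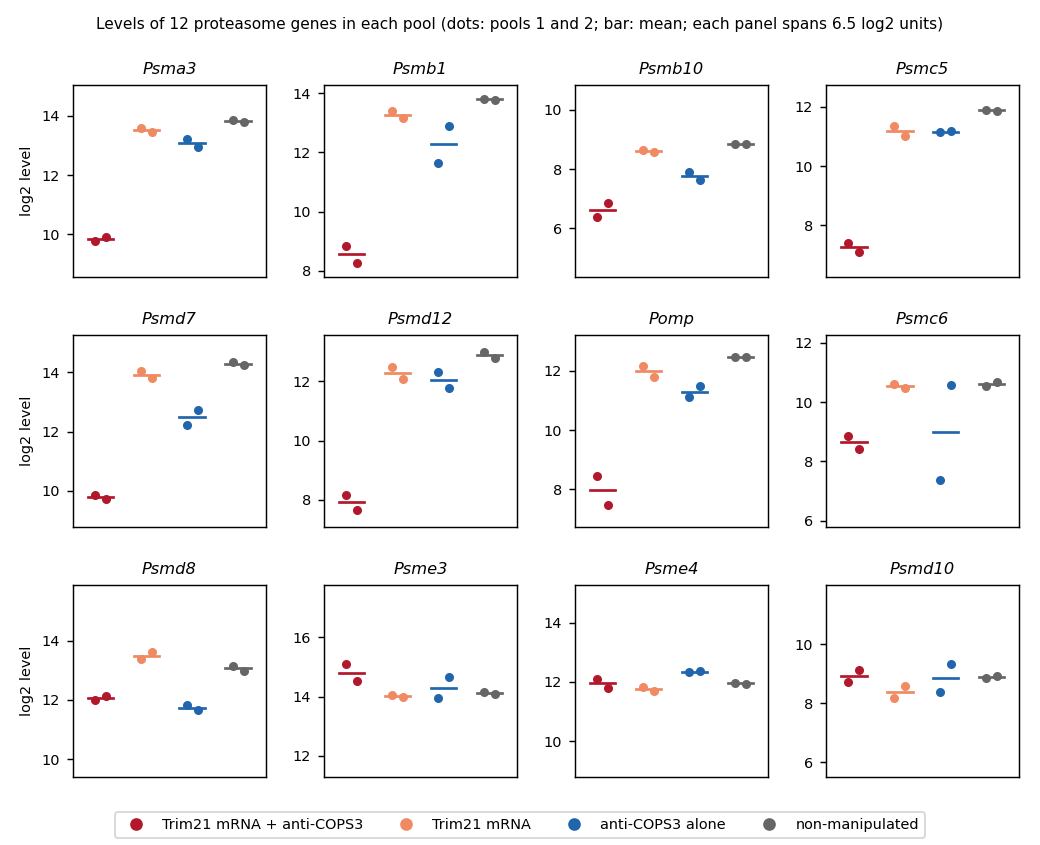
Log2 level of 12 proteasome genes in each pool, with dots for the 2 pools of a group, bars for the mean, and panels that all span the same range. In Psma3, Psmc5, Psmd12 and Pomp the full-treatment dots lie far below all other groups, in Psmd8 both antibody groups lie low, in Psmc6 the antibody-alone pools split at 7.38 and 10.57, and in Psme3 the full-treatment dots lie at 15.09 and 14.53.

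Antibody alone, set against non-manipulated embryos, also gave falls among the proteasome genes. Of the 45 genes 14 fell and none rose on the deposited scale, where 7.29% of all genes fell and 2.76% rose, and the median of the 45 was −0.79 against 0.18 over all genes. Among genes with a mean log2 level of 8 or more, 11 of the 35 proteasome genes fell and none rose, where 21.4% of all 6739 fell and 5.83% rose. The lid contributed 6 of the 14: Psmd6, Psmd7, Psmd8, Psmd11, Psmd13 and Psmd14, at −1.82 to −1.10. The others were Psma3, Psma7, Psmb2, Psmb4, Psmb10, Psmc1, Psmd4 and Psmg3. Of the genes called, Psmd7 moved furthest, at 12.23 and 12.74 with antibody alone against 14.34 and 14.26 in non-manipulated embryos (−1.82 ± 0.21, adjusted p = 0.00569). Psma6 stood lower still at −2.13 ± 0.53 without passing (adjusted p = 0.0533). Psmd8 read 12.00 and 12.15 with the full treatment and 13.38 and 13.61 with Trim21 mRNA, against 11.82 and 11.66 with antibody alone and 13.16 and 12.97 in non-manipulated embryos, so all pools that received antibody lay below all pools that did not. Markers also differed here: 3 of 10 markers of the 2-cell program rose and 1 fell, with sums of 113.6 and 119.2 with antibody alone against 109.1 and 107.6 in non-manipulated embryos, and 2 of 12 cumulus and granulosa markers rose, with sums of 67.6 and 68.4 against 62.2 and 67.1. Of the 14 oocyte and embryo markers 4 rose, with sums of 176 and 183 against 173.9 and 173. Their part in these differences was not tested.

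This comparison leaned on single arrays. At 14 of the 45 genes the 2 antibody-alone pools lay more than 2-fold apart, and at 12 of those the first pool was the lower. At Psmc6 they read 7.38 and 10.57, at Sem1 7.46 and 9.64, and at Psmg4, an alpha-ring chaperone, 6.20 and 8.05. The first pool lay below both non-manipulated pools at 38 of the 45 genes and the second at 32. No share over all genes was taken for these counts. Brighter genes often stood lower in this comparison: of the 6739 with a mean log2 level of 8 or more, 4366 had a difference below 0. Fewer of the 45 genes, and a smaller share of all genes, were called without any 1 of the non-manipulated or Trim21 mRNA arrays. The median of the 45 genes stayed at −0.79 in each of these fits. The share of all genes called also moved with the antibody-alone array left out. Without the second antibody-alone array the median of the 45 genes was −0.89, against 0.25 over all genes. Without the first it was −0.74, against 0.07. With only the groups compared in the fit, none of the 45 genes was called. As 0% of all genes were called in that fit, it cannot tell the proteasome genes from others. Scaling changed the calls too: after quantile normalization 6 were lower and Psme4 was higher (0.67, adjusted p = 0.0272), and after cyclic loess 7 were lower, with Psme4 higher by 0.61 and Psmg1 by 0.91. The 6 and 7 are 13.3% and 15.6% of the 45 genes. Over all genes 4.55% and 5.61% were lower under these scalings. At a mean log2 level of 8 or more, where 35 of the 45 lie, 12.5% and 15.3% of all genes were lower. The share of proteasome genes called lower was thus close to that of bright genes. None of the 14 calls was kept under every left-out array.

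Trim21 mRNA without antibody gave no call among the proteasome genes against non-manipulated embryos. None of the 45 genes passed limma's test, and 5 had an unadjusted p under 0.05. With only these groups in the fit 4 were called, all lower, where 5.34% of all genes fell and 2.87% rose. With array quality weights 8 were called, 6 lower and 2 higher, where 7.27% of all genes fell and 4.91% rose. Trim21 was the only gene called among all 30700 (0.00326%), at 4.00 ± 0.26. The median difference of the 45 genes was −0.21, against 0.04 over all genes and −0.15 over genes with a mean log2 level of 8 or more. The smallest unadjusted p of the complex belonged to Psmc5, at −0.70 ± 0.19 (adjusted p = 0.57).

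Set against antibody alone, the full treatment had lower levels of 20 of the 45 genes and higher levels of none, where 10.5% of all genes fell and 4.37% rose. At a mean log2 level of 8 or more, 18 of the 35 proteasome genes fell, where 35.5% of all genes at that level fell and 6.83% rose. The alpha ring gave 5 of the 20 and the lid 5, with Psmd12 at −4.12 ± 0.27 (adjusted p = 0.000356) and Psmc5 at −3.90 ± 0.19 (adjusted p = 0.000137). Psmb2 and Psmd8, which fell in each antibody group against its own comparison group, stood at 0.14 ± 0.23 and 0.34 ± 0.17 between them, and neither passed (adjusted p = 0.745 and 0.257). Psmd8 was called higher in this comparison after quantile normalization (0.97, adjusted p = 0.0226) and after cyclic loess (0.85, adjusted p = 0.043). With all 8 arrays the median of the 45 genes was −1.04, against 0.05 over all genes. It was −1.36, against 0.13, without the first antibody-alone array and −0.86, against −0.03, without the second. A larger share of all genes was called in both of these fits than with all arrays. Without the second, Psmc6, Psmg2, Psmg4 and Sem1 stood at 1.26, 0.81, 1.42 and 0.81 against antibody alone. At these genes the remaining pool was the lower of the pair. Psme3 stood at 0.86 in that fit. Against non-manipulated embryos, the full treatment had lower levels of 33 of the 45 genes and higher levels of none, where 16.6% of all genes fell and 15.1% rose. At a mean log2 level of 8 or more the count was 28 of 35, where 48.8% of all genes at that level fell and 9.69% rose. Psmb1 was 37.8-fold lower in that comparison (−5.24 ± 0.40) and Psmd12 31.6-fold lower (−4.98 ± 0.27). Both full-treatment pools lay below all 6 other pools at 26 of the 45 genes, against 14.2% of all genes, and above all 6 at none, against 17.6%. The antibody-alone mean fell between those of the full treatment and of non-manipulated embryos at 30 of the 45. No share over all genes was taken for this count. These comparisons share their full-treatment pools with the first.

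Whether the antibody went with a larger change when Trim21 mRNA was present was tested as the difference of the differences, that is, the full treatment minus Trim21 mRNA, less antibody alone minus non-manipulated embryos. Of the 45 genes 14 were lower by this test and none higher, where 3.46% of all genes were lower and 0.625% higher. Among genes with a mean log2 level of 8 or more, all 14 were among the 35 proteasome genes, where 14.1% of all 6739 were lower and 1.66% higher. The smallest p belonged to Psma3 at −2.93 ± 0.23 (adjusted p = 0.00357), Psmc5 at −3.20 ± 0.27 (adjusted p = 0.00364) and Psmd12 at −3.52 ± 0.38 (adjusted p = 0.00662). For Psmc5, the fall was 15.2-fold in the presence of Trim21 mRNA and 1.65-fold in its absence, the second of which did not pass (adjusted p = 0.059). The count was sensitive to single arrays. The share of all genes called moved as well. With all 8 arrays the median of the 45 genes was −0.91, against 0 over all genes. It was −1.12, against 0.08, without the first antibody-alone array and −0.64, against −0.09, without the second. Without any 1 of the other arrays it lay at −0.94 to −0.83. Without the second antibody-alone array Psmc6, Psmg2 and Psmg4 stood at 1.31, 0.86 and 1.44. Of the 14, Psma3 and Psmc5 alone were called under each of those settings and under every scaling. In this contrast each arm was handled on days of its own.

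The sizes were read against the level of the genes, because falls were more frequent among brighter rows, although a row's level is no measure of abundance relative to another row. By definition 25% of all genes lie below the lower quartile. Between mean log2 levels of 6 and 8, all genes had quartiles of −0.74 and 0.44 for the full treatment minus Trim21 mRNA, and 5 of 7 proteasome genes lay below the lower one. Between 8 and 10, all genes had quartiles of −1.69 and 0.31, and 7 of 11 lay below. Between 10 and 12 the quartiles were −2.17 and 0.32, and 9 of 17 lay below. Between 12 and 14 they were −2.57 and 0.25, and 3 of 6 lay below. Psme3, alone between 14 and 16 at a mean of 14.31, lay above the upper quartile of −0.12.

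**Figure D4:**
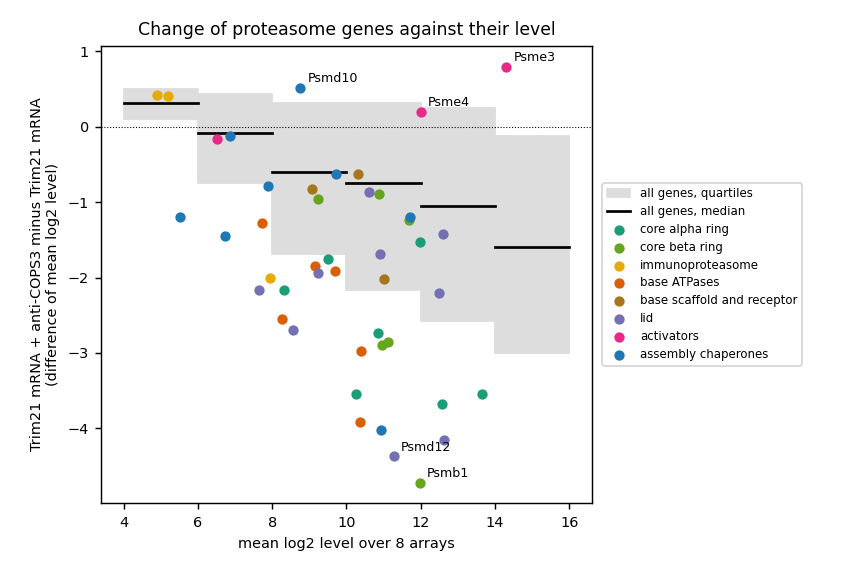
Each point is a proteasome gene, with its mean log2 level over 8 arrays on the horizontal axis and its difference between the full treatment and Trim21 mRNA on the vertical axis, and grey boxes and black lines give the quartiles and median of all genes in steps of 2. Psmb1 and Psmd12 lie at the bottom, at −4.72 and −4.37, while Psme3 at 0.80 lies above its grey box.

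Scaling shifted all sizes and kept the order of the 6 class medians below 0, from the alpha ring through the ATPases, lid, beta ring and assembly chaperones to the base scaffolds and receptor. The median of the 45 genes was −1.75 as deposited, −2.09 with each array centred on its median, −1.26 after quantile normalization and −1.33 after cyclic loess, when the median of all genes was 0.21, −0.12, −0.01 and −0.02. The number called was 29 lower as deposited and 30 lower after centring. After quantile normalization it was 21 lower and 2 higher, and after cyclic loess 22 lower and 2 higher. The split of all calls moved as well: as deposited 14.5% of all genes fell and 8.72% rose, after centring 17.5% and 2.85%, after quantile normalization 12.3% and 10.5%, and after cyclic loess 12.4% and 9.41%. At a mean log2 level of 8 or more it moved further. There 44.4% of genes fell and 11.6% rose as deposited, with a median of −0.74. After centring the shares were 46.8% and 5.85% with a median of −1.07, after quantile normalization 31.3% and 26.3% with a median of −0.06, and after cyclic loess 33.2% and 23.5% with a median of −0.17. Of the 29 genes called as deposited, 21 were called under every scaling and with every array left out in turn. They were 5 alpha-ring genes, Psma3 to Psma7, the beta-ring genes Psmb1, Psmb4 and Psmb7, Psmb10, the ATPases Psmc1, Psmc2, Psmc4 and Psmc5, the receptor Psmd4, the lid genes Psmd7, Psmd11, Psmd12, Psmd13 and Psmd14, and the chaperones Psmg3 and Pomp.

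**Figure D5:**
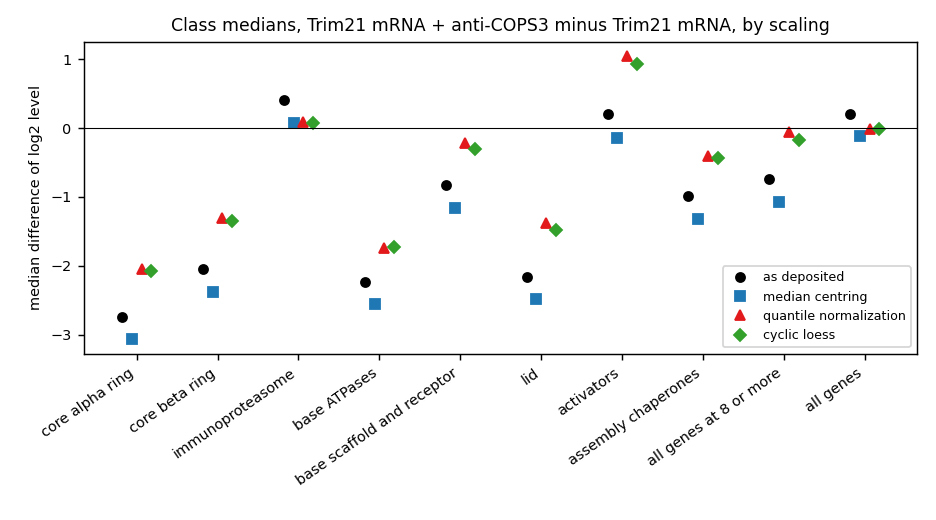
Median difference of log2 level between the full treatment and Trim21 mRNA for each class of proteasome genes, for all genes with a mean log2 level of 8 or more and for all genes, under 4 scalings given by marker shape. The alpha-ring median stays at −3.07 to −2.05 and the lid median at −2.49 to −1.38, whereas the activators lie at −0.14 to 1.05.

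Genes that work with the proteasome moved in both directions. Of a list of 35 such genes 27 were measured, of which 7 fell (25.9%) and 3 rose (11.1%) with the full treatment against Trim21 mRNA, with a median of 0.07. Over all genes 14.5% fell and 8.72% rose, with a median of 0.21. Zfand2a, an arsenite-inducible protein that binds the proteasome, moved furthest: it read 9.74 and 9.28 with the full treatment and 12.87 and 12.69 with Trim21 mRNA, against 13.03 and 13.25 with antibody alone and 13.15 and 13.35 in non-manipulated embryos (−3.27 ± 0.21, adjusted p = 0.000113). Uchl5, a deubiquitinase that docks on the base, read 8.14 and 7.73 with the full treatment and 10.72 and 10.30 with Trim21 mRNA, against 10.34 and 10.78 with antibody alone and 11.17 and 11.30 in non-manipulated embryos (−2.58 ± 0.24, adjusted p = 0.000481). In both genes the full-treatment pools were the low ones and the antibody-alone pools lay near the other groups. Vcp, the unfoldase that extracts proteins for degradation, read 9.15 and 9.02 with the full treatment and 11.52 and 11.43 with Trim21 mRNA, against 8.78 and 10.18 with antibody alone and 11.27 and 11.14 in non-manipulated embryos (−2.39 ± 0.41, adjusted p = 0.00624). Usp14, the other deubiquitinase of the base, fell by 1.09 ± 0.25, and the ubiquitin-activating enzyme Uba6, Zfand5 and Txnl1 fell too, at −1.43, −1.21 and −1.05.

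The 3 that rose were Midn, Psmf1 and Ecpas. Psmf1, an inhibitor of the core in vitro, read 6.77 and 6.84 with the full treatment and 6.01 and 5.92 with Trim21 mRNA, against 5.98 and 6.26 with antibody alone and 6.02 and 6.20 in non-manipulated embryos (0.84 ± 0.17, adjusted p = 0.0117). Midn, which carries nuclear proteins to the proteasome, was higher by 0.90 ± 0.20, and Ecpas, a proteasome-binding adaptor, by 0.82 ± 0.22. The direction of the list depended on the scaling: 8 fell and none rose after each array was centred on its median, 6 fell and 8 rose after quantile normalization, and 5 fell and 8 rose after cyclic loess. Over all genes 17.5% fell and 2.85% rose after centring, 12.3% and 10.5% after quantile normalization, and 12.4% and 9.41% after cyclic loess. At a mean log2 level of 8 or more these shares were 46.8% and 5.85%, 31.3% and 26.3%, and 33.2% and 23.5%. The shift was thus not particular to the list. Nfe2l1, the transcription factor that raises proteasome genes when proteasome activity is short, read 13.64 and 13.38 with the full treatment and 13.52 and 13.36 with Trim21 mRNA, against 13.44 and 13.56 with antibody alone and 13.62 and 13.67 in non-manipulated embryos. All 8 pools thus lay between 13.36 and 13.67 (0.07 ± 0.16, adjusted p = 0.765), and NFE2L1 is set mainly through its protein, which arrays do not measure. With antibody alone against non-manipulated embryos 2 of the 27 fell, Vcp and Zfand5, and 2 rose, Ecpas and Nfe2l2. Each is a share of 7.41%, where 7.29% of all genes fell and 2.76% rose. At a mean log2 level of 8 or more 21.4% of genes fell and 5.83% rose. The falls among the 27 were thus at the share over all genes. After centring 2 fell and none rose, after quantile normalization 1 fell and 3 rose, and after cyclic loess none fell and 4 rose. Over all genes 8.61% fell and 1.15% rose after centring, 4.55% and 3.31% after quantile normalization, and 5.61% and 4.05% after cyclic loess.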

How the data were processed

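RNA was labelled with the GeneChip WT Pico kit, per the labels, and processed in Affymetrix Expression Console, per the submitters' processing notes. Not given in the sources used here are its version, the summarisation and the array's genome build. The deposited values are log2 levels per transcript cluster, made by the authors. The deposited column of non-manipulated replicate 1 was recorded as a score, because 1 of its cells holds a large whole number among log2 levels. That cluster was left out, which kept 65955 of 65956 clusters. Of these 31257 name 1 gene, 1492 several and 33206 none. Older symbols of 1138 clusters were updated. For the 442 genes on several clusters the one with the highest mean was used, which left 30700 genes.

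The two-sided moderated test of limma 3.58.1 (R 4.3.3), from lmFit followed by eBayes, was run on 4 group means fitted to all 8 arrays, with no low-level filter. Each gene had 4 residual and 6.83 total degrees of freedom, and the median standard error was 0.22 (0.31 for the difference of differences). P was adjusted by Benjamini-Hochberg over all genes in each of 6 comparisons. With 2 pools a group no exact test could reach the threshold, and the small number of arrays limits the precision. The fit was tested on simulated data. The members, lists, motifs and alternatives were chosen with earlier results of these data known. Values in every pool are given, per class, for the 2 largest differences and the smallest between the full treatment and Trim21 mRNA, for the catalytic subunits and their immune counterparts and for the 3 smallest p of the difference of differences. Genes whose pool values are given beside these were chosen after their values were seen. Of other pathway genes, up to 3 called a direction were named, with Nfe2l1, Psmf1, Usp14 and Uchl5. Others named there were chosen after their values were seen. Alternatives were 3 scalings, a low-level filter, other cluster choices, a trended robust prior, array quality weights, only the groups compared, genes at an array's highest value left out, a 2-fold minimum, a replicate block and leaving out each array. Promoters came from RefSeq. A further 4 motifs of 10 or more letters were searched and are not reported here.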

Additional observations from a re-analysis of the deposited data

Results flagged for a closer look

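The change that went with the antibody differed with and without Trim21 mRNA at 14 proteasome genes and 2 associated genes, each by the limma test of the difference of differences (the full treatment minus Trim21 mRNA, less antibody alone minus non-manipulated embryos) at an adjusted p under 0.05. In the core, this difference was −2.93 ± 0.23 at Psma3, −2.81 ± 0.49 at Psma4, −1.41 ± 0.21 at Psma7, −3.20 ± 0.56 at Psmb1 and −2.32 ± 0.41 at Psmb7. In the base it was −1.79 ± 0.36 at Psmc1, −3.20 ± 0.27 at Psmc5 and −1.24 ± 0.22 at Psmd4. In the lid it was −2.34 ± 0.29 at Psmd7, −1.10 ± 0.21 at Psmd11, −3.52 ± 0.38 at Psmd12 and −1.43 ± 0.22 at Psmd14. Among chaperones it was −1.38 ± 0.21 at Psmd5 and −2.85 ± 0.47 at Pomp. Of the associated genes, Uchl5 stood at −1.90 ± 0.34 and Zfand2a at −3.16 ± 0.29. Adjusted p ran from 0.00357 at Psma3 to 0.0458 at Psmc1. Every one of the 16 was lower, and 3.46% of all genes were lower by this test.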

How the results depend on the processing

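In the full treatment against Trim21 mRNA, the 29 calls among the proteasome genes stayed within 1.5 times that count under the alternatives run, except for 19 with a 2-fold minimum, and ranged from 23 to 39 with an array left out. Antibody alone against non-manipulated embryos, with 14 calls, gave 7 after quantile normalization, 9 after cyclic loess, 6 with array quality weights, and 0 both with only the groups compared and with a 2-fold minimum, with 0 to 29 when an array was left out. Trim21 mRNA against non-manipulated embryos, with 0 calls, gave 4 (all lower) with only the groups compared and 8 (6 lower, 2 higher) with array quality weights, and 0 to 0 with an array left out. The full treatment against antibody alone, with 20 calls, gave 13 with only the groups compared and 10 with a 2-fold minimum, and 19 to 31 with an array left out. The full treatment against non-manipulated embryos, with 33 calls, gave 19 with a 2-fold minimum and 24 to 41 with an array left out. The difference of differences, with 14 calls, gave 9 after quantile normalization and with a trended robust prior, 8 after centring and after cyclic loess, 3 with a 2-fold minimum, and 2 to 25 with an array left out. The share of all genes called moved between these settings as well, so a count alone does not show a change particular to the proteasome genes. The cause of these shifts was not tested.

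Single genes turned direction in the full treatment against Trim21 mRNA without being called: Psmd2 to 0.10 and Psmg1 to 0.06 after quantile normalization, Psme4 to −0.14 after centring and Psmd9 to 0.05 after cyclic loess. Over the single-gene results and their alternatives, 2159 values kept their direction and their side of the threshold, 361 lost a call, 55 gained one and these 4 turned. This tally followed all 45 genes only in the full treatment against Trim21 mRNA. In the other comparisons it followed only genes called as reported. Calls gained there, and turns at genes not called there, are therefore not in it. With the replicate number as a block the counts of the 6 comparisons were 28, 11, 0, 19, 30 and 10, in the order above. Deviations of pools with the same number correlated at −0.191 to 0.143 between groups. With 2 pools a group, this cannot show whether pools of the same number share more than the number. With the antibody-alone group left out of the fit, an alternative chosen after seeing the data, the full treatment gave 39 calls against Trim21 mRNA (37 lower, 2 higher) and 41 against non-manipulated embryos (39 lower, 2 higher). Over all genes 20.3% fell and 25.9% rose in the first of these, and 22.9% and 34.2% in the second. With 2 pools a group, small differences of a single gene are beyond the precision of these arrays.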

Other observations

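The rows left out because they name a second gene were read as values, without a test. The row shared by Psmb5, the chymotrypsin-like subunit of the core, and the microRNA gene Mir686 read 8.76 and 8.83 with the full treatment and 14.14 and 14.05 with Trim21 mRNA, against 12.25 and 13.45 with antibody alone and 14.61 and 14.69 in non-manipulated embryos. Its full-treatment pools thus lay below all 6 other pools, and which of the 2 genes the row reports is not given. Psme2, a partner of Psme1 in the interferon-inducible activator, shared 2 rows with Psme2b. These read 6.78 and 7.04, and 7.04 and 7.56, with the full treatment, and 7.94 and 8.20, and 9.26 and 9.75, with Trim21 mRNA. With antibody alone they read 8.41 and 7.82, and 9.50 and 7.96, against 7.70 and 7.71, and 9.04 and 9.39, in non-manipulated embryos. On both rows the full-treatment pools were the lowest.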
